A study of Mus musculus with 9 samples.

Results

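Cadherins and protocadherins are the largest families of calcium-dependent adhesion molecules on the surface of animal cells. Members were taken from the array table by gene symbol: every gene with a single annotated symbol made of Cdh or Pcdh and a number, the clustered protocadherins named Pcdha, Pcdhb or Pcdhg, Fat1 to Fat4, and Dchs1. This gave 60 genes of the 18193 genes with a probe set of their own. Of these 60 genes, 34 (56.7%) exceeded 90.6, the median of all signals, on 3 or more arrays out of 9, against 63.6% of all genes. 23 of them were above it in all 9 arrays, 23 other members were above it in none, and 3 were above it in 1 or 2 arrays.

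Classical cadherins bind the same cadherin on the neighbouring cell through their extracellular repeats, and through their cytoplasmic tail they hold beta-catenin and p120-catenin, which connect them to actin. Protocadherins have similar repeats but other tails that do not carry the classical catenin-binding region, and the clustered ones are made from rows of tandem genes. Fat and Dchs proteins are giant cadherins that bind each other between cells and set planar polarity and growth. In embryonic limb mesenchyme and tendon, N-cadherin (Cdh2) and cadherin-11 (Cdh11) are the best known members and join tendon cells to each other along the forming collagen bundles.

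The cells were sorted by flow cytometry for green fluorescence from trypsin-dissociated forelimbs of Scx-GFP mouse embryos, in which GFP reports the tendon transcription factor gene Scx. The embryos were staged by embryonic day as E11.5, E12.5 or E14.5, and each stage has 3 arrays, lettered A, B and C. Every array is of cells with the same reporter sorted for GFP, so each comparison is between stages of GFP-positive cells. There are no GFP-negative samples among these arrays. Either of a pair of cell sorters was used, without a label saying which one sorted which sample. The labels do not say whether arrays of one stage came from separate litters, so p-values measure the spread between these samples, which may be technical. Values are linear MAS5 signals of Affymetrix Mouse Genome 430 2.0 arrays, the number of arrays limits their precision, and a signal can be compared between arrays for one probe set but not between probe sets.

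All 8 of the listed tendon markers had a probe set, and 5 were above the median of all signals on all 9 arrays. Their summed signal was 16961 to 24531 at E11.5, 22209 to 22249 at E12.5 and 38812 to 53904 at E14.5. Most of the E11.5 sum was Scx, the gene of the reporter, at 14811 to 21828. Tnmd, a tendon membrane protein, was at 7.80 to 42.0 at E11.5 and at 6005 to 9398 at E14.5. Scx itself fell by 0.81 ± 0.22 (SE) on the log2 scale from E11.5 to E14.5 (limma adjusted p = 0.0164), with overlapping arrays, and leaving out E11.5 B, E11.5 C or E14.5 B brought the adjusted p to 0.0551, 0.0533 or 0.0585. Markers of other limb cells were also measured. The summed signal of 10 cartilage markers was 81899 in array E14.5 A against 18864 in E14.5 B and 9306 in E14.5 C, so these 3 arrays differed in cartilage signal. In such bulk samples, fewer cells of a type and less RNA per cell cannot be told apart.

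Most of the measured members were higher at E14.5 than at E11.5. Changes are differences of mean log2 signal, with the standard error from a linear model across all genes (limma), and a change was called at an adjusted p under 0.05 over the 11575 genes tested, those above the median on 3 or more arrays. Between E11.5 and E14.5, 22 of the 34 tested members rose (64.7%), where 22.9% of all tested genes rose. In the other direction 1 member fell (2.94%), where 17.7% of all genes fell. The median change of the 34 members was 1.17 on the log2 scale and that of all tested genes was 0.00. In the earlier interval, E11.5 to E12.5, 4 members rose and 0 fell (12 of 34 at an unadjusted p under 0.05, where 16% of all genes were), where 3.11% of all genes rose and 0.441% fell. In the later interval, E12.5 to E14.5, 11 members rose and 1 fell, where 12.6% of all genes rose and 9.32% fell. Of the 34 members, 12, 18 and 21 had every array of the later stage above every array of the earlier one, in E11.5 to E12.5, E12.5 to E14.5 and E11.5 to E14.5, where 15.8%, 20.6% and 27.3% of all genes did. The reverse held for 0, 1 and 1 of them, where it held for 7.75%, 21.9% and 24.1% of all genes.

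A gene that passed the signal filter only through its high stage had to differ, so the counts were also taken over the 23 members above the median in all 9 arrays, a choice made after the data were seen. Among these, 13 rose between E11.5 and E14.5, where 19.3% of such genes rose, 8 rose between E12.5 and E14.5, where 9.99% did, and 1 rose between E11.5 and E12.5, where 2.19% did. Without any filter, over all 60 members, 22 rose and 1 fell between E11.5 and E14.5, where 14.2% of all 18193 genes rose and 10.5% fell. The scaling of the arrays moves such counts. Under quantile normalization 16 members rose and 1 fell, and the share of rises among all genes called went from 56.4% to 44.6%. With each array centred on its own median 16 members rose and 2 fell, and that share was 26.7%. The median change of all genes was then -0.35 on the log2 scale, so the members' changes stand relative to that shift.

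**Figure D1:**
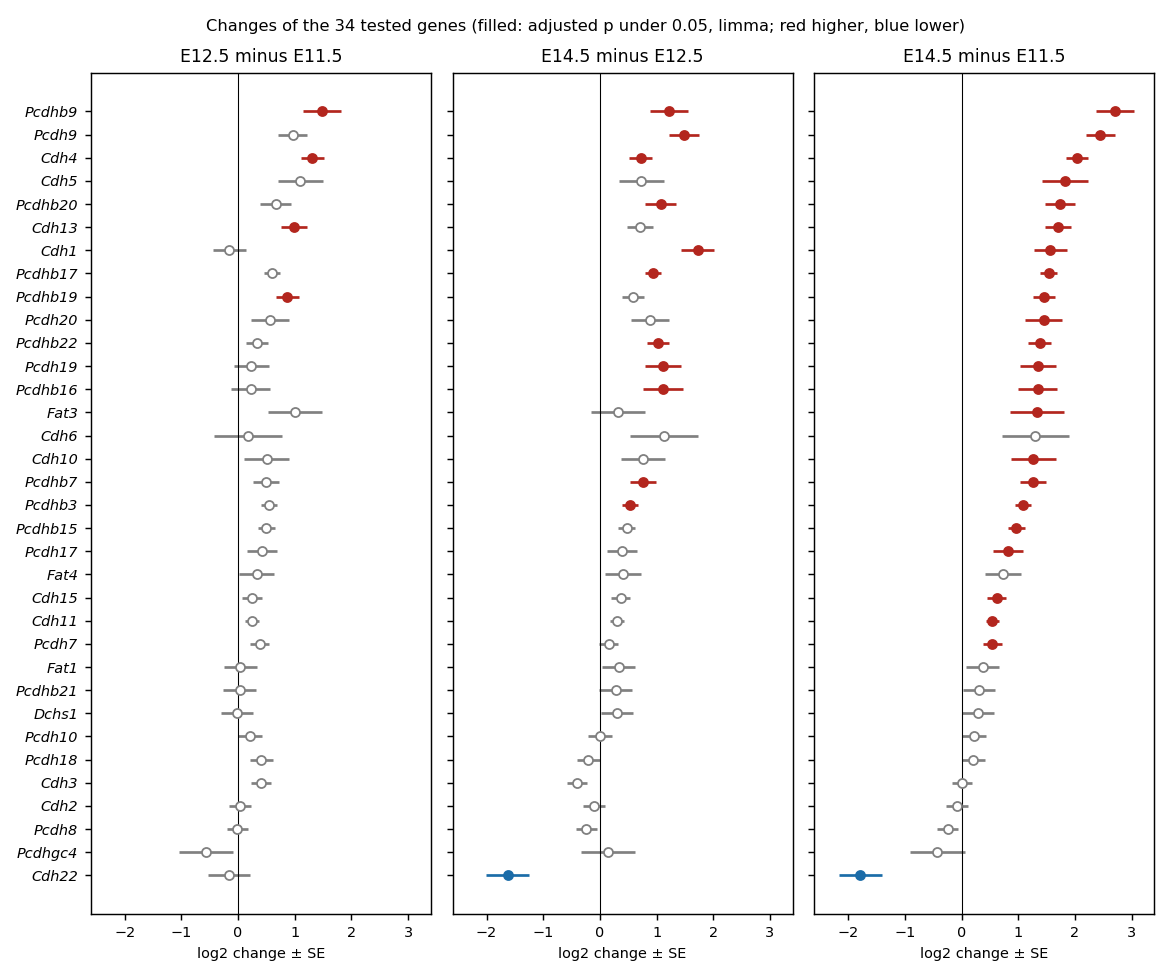
Log2 change of signal ± SE for the 34 tested cadherin and protocadherin genes in the 3 stage comparisons, 3 arrays per stage, ordered by the change from E11.5 to E14.5. Filled points passed an adjusted p of 0.05 (limma): 4, 11 and 22 members were higher (red), and Cdh22 was lower (blue) at E14.5 than at either earlier stage.

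The type I classical cadherins are the 5 genes Cdh1, Cdh2, Cdh3, Cdh4 and Cdh15, all above the median in at least 3 arrays. Of these, 3 rose from E11.5 to E14.5 (60%) and none fell, where 22.9% of all tested genes rose and 17.7% fell. Cdh1, among the 3, passed the signal filter only through its E14.5 arrays, so it had to differ. Cdh4, R-cadherin, known from the retina, had signals of 223, 282 and 262 in arrays A, B and C at E11.5. At E12.5 they were 521, 730 and 663, and at E14.5 they were 826, 1051 and 1291. The 3 stages did not overlap, and each step was a rise. Cdh4 rose 4.08-fold from E11.5 to E14.5, by 2.03 ± 0.20 on the log2 scale (limma adjusted p = 5.97e-05), and it was called under every alternative tried for that comparison. A separate Cdh4 probe set, tested in a fit of all probe sets that was added after the data were seen, rose by 2.12 ± 0.23 (adjusted p = 0.000495).

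Cdh2 and Cdh3 did not pass the test between E11.5 and E14.5. Cdh2, N-cadherin, the cadherin of mesenchymal condensation, had signals of 4315, 5376 and 4627 at E11.5, 4492, 5388 and 4729 at E12.5, and 3337, 5505 and 4977 at E14.5. These ranges overlapped, with the lowest value in E14.5 A, and the difference was -0.08 ± 0.20 on the log2 scale (limma adjusted p = 0.784). Its sign turned without E11.5 B (0.01), without E14.5 A (0.14) and without all 3 letter A arrays (0.07). Cdh3, P-cadherin, known from basal epithelium, had mean signals of 665 ± 95.0 (SD, n = 3) at E11.5, 882 ± 99.0 at E12.5 and 669.5 ± 124 at E14.5. Its difference from E11.5 to E14.5 was 0.00 ± 0.18 (limma adjusted p = 0.988), with either sign under other settings. It was -0.35 with arrays centred on their medians and -0.13 without E14.5 C, but 0.13 without E14.5 A and 0.20 without the 3 letter A arrays.

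Cdh1, E-cadherin, the cadherin of epithelial sheets, was low until E14.5. Its signals were 50.2, 47.6 and 33.3 at E11.5, 50.9, 43.1 and 26.2 at E12.5, and 170, 127 and 95.9 at E14.5. Only the E14.5 arrays were above the median of all signals, and they did not overlap with the earlier ones. The rise was 1.57 ± 0.29 from E11.5 (limma adjusted p = 0.00249) and 1.72 ± 0.29 from E12.5 (limma adjusted p = 0.00343). With the floor set at the median of all signals both values were 0.49 (adjusted p = 0.052 and 0.0757), and without any single E14.5 array, or without the 3 letter A arrays, Cdh1 no longer met the filter and was not tested. Epithelial markers were measured beside it: of 10 listed, 5 were tested, Epcam and Krt5 rose and Krt8 fell. Their summed signal was 1024 to 1212 at E11.5, 1344 to 1518 at E12.5 and 1375 to 1665 at E14.5, and 3 of the 10 were below the median on every array. Krt5, a basal keratin, had signals of 322, 277 and 164 at E14.5, in the same order of arrays as Cdh1, against 74.1 to 126 before. Krt15, another basal keratin, was at 198, 110 and 15.7 at E14.5 and at 2.65 to 18.4 before, and Esrp1, an epithelial splicing factor, at 47.3 to 87.9 and 3.52 to 28.4. Krt14, a defining marker of basal epidermis, was at 13.1 to 66.7 on all arrays. The part of these markers in the rise of Cdh1 was not tested.

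Cdh15, M-cadherin, an adhesion molecule of myoblasts and satellite cells, had signals of 265, 234 and 260 at E11.5, 358, 263 and 286 at E12.5, and 466, 378 and 329 at E14.5. The E14.5 arrays were all above the E11.5 arrays. The rise was 0.62 ± 0.17 (limma adjusted p = 0.0172), and the adjusted p was 0.0545 without E11.5 B, 0.0531 without E14.5 A and 0.0538 without the 3 letter A arrays. It was 0.35 (adjusted p = 0.131) under quantile normalization and 0.27 (adjusted p = 0.23) with arrays centred on their medians. Muscle markers were present: all 10 listed were tested, 5 rose and 1 fell from E11.5 to E14.5, and their summed signal was 4235 to 6753, 6444 to 11351 and 9095 to 12468 at the 3 stages. Array A had the highest muscle sum and the highest Cdh15 signal of its stage on each of the 3 days. Myog, the myogenin gene of differentiating myoblasts, rose by 1.41 ± 0.27 (limma adjusted p = 0.0029). Myod1 (-0.13 ± 0.27, limma adjusted p = 0.746) and Myf5 (-0.71 ± 0.37, 0.156) did not pass the test. Pax3, the marker that fell, was at 204 to 278 at E11.5 and 57.7 to 123 at E14.5. The part of the muscle markers in the Cdh15 values was not tested.

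Of 11 type II cadherins, 5 were tested from E11.5 to E14.5. Among them 3 rose (60%) and 1 fell (20%), where 22.9% of all tested genes rose and 17.7% fell. Cdh5, among the rises, passed the signal filter only through its later arrays, and Cdh22, the fall, only through its earlier ones. The filter thus favours a change in both, and these shares do not stand apart from it. Cdh11, the cadherin of loose mesenchyme, bone and joint lining, had signals of 9695, 10183 and 10866 at E11.5, 11160, 12061 and 13190 at E12.5, and 15157, 15211 and 14353 at E14.5. The stages did not overlap. The rise was 0.54 ± 0.12, or 1.46-fold (limma adjusted p = 0.00627). It was 0.19 (adjusted p = 0.212) with arrays centred on their medians, and the adjusted p was 0.0524 without the 3 letter A arrays. A further Cdh11 probe set changed by 0.28 ± 0.19 (adjusted p = 0.31) in the fit of all probe sets.

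Cdh5, VE-cadherin, which joins endothelial cells, had signals of 25.1, 21.0 and 65.3 at E11.5, 82.6, 45.7 and 96.1 at E12.5, and 127, 124 and 105 at E14.5. The highest E11.5 value was below the lowest E14.5 value. None of the E11.5 values was above the median of all signals. The rise was 1.82 ± 0.40 (limma adjusted p = 0.00569), with 1 of the E11.5 arrays set to the floor of 22.7 that was applied before taking logs. It was 0.38 with the floor at the median of all signals, and the adjusted p was 0.0626 without the 3 letter A arrays. Another Cdh5 probe set was at 6.54 to 60.6 on all arrays, below that median. Of 10 endothelial markers, 4 were tested: Tek, Emcn and Kdr rose, and Egfl7 did not pass the test (0.21 ± 0.25, limma adjusted p = 0.53). The summed signal of the 10 was 490 to 757 at E11.5, 596 to 877 at E12.5 and 1304 to 1625 at E14.5. Tek, a receptor of vessel walls, rose by 3.24 ± 0.26 (limma adjusted p = 1.75e-05). Tie1, also defining for endothelium, was at 1.02 to 27.3 on all arrays. Pecam1 was at 11.2 to 71.7 at E11.5 and 13.7 to 72.3 at E14.5. Cldn5, Robo4 and Esam also overlapped between these stages, and Flt1 was higher on every E14.5 array. The part of endothelial markers in the Cdh5 rise was not tested.

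Cdh22 was the only member that fell. Its signals were 93.8, 147 and 110 at E11.5, 104, 114 and 92.0 at E12.5, and 13.0, 23.8 and 68.0 at E14.5. All 3 E14.5 arrays were below all 6 earlier arrays. Cdh22 passed the filter only through its E11.5 and E12.5 arrays, where it was high, so this choice of genes favours a fall. The fall was -1.79 ± 0.38 from E11.5 (limma adjusted p = 0.00476) and -1.63 ± 0.38 from E12.5 (limma adjusted p = 0.0148). As the E14.5 signals lie below the median of all signals, the size of the fall depends on the floor: with the floor at that median it was -0.34 (adjusted p = 0.131) and -0.18 (adjusted p = 0.465). The fall from E12.5 was also not called without any filter (adjusted p = 0.0554) or without the 3 letter A arrays (adjusted p = 0.115).

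Cdh10 and Cdh6 varied more between arrays. Cdh10 had signals of 191, 80.0 and 261 at E11.5, 207, 261 and 210 at E12.5, and 282, 523 and 373 at E14.5, a rise of 1.26 ± 0.39 from E11.5 (limma adjusted p = 0.0285) with no overlap between those stages. The rise was 0.77 without E11.5 B (adjusted p = 0.0552), and the adjusted p was 0.0955 without E14.5 B and 0.061 without E14.5 C. The call was also lost without any filter (0.0895), under quantile normalization (0.0668), with median centring (0.0618), from the 6 arrays compared (0.0504) and without the 3 letter A arrays (0.0508). Another Cdh10 probe set, not tested, was at 32.7 to 125 at E11.5 and 43.2 to 121 at E14.5. Cdh6, a cadherin of kidney and neural crest, had signals of 109 to 631 at E11.5, 193 to 420 at E12.5 and 380 to 955 at E14.5. The stages overlapped, array A had the lowest value at each stage, and the difference was 1.30 ± 0.60 (limma adjusted p = 0.112). It was 1.91 without E11.5 B (adjusted p = 0.0245) and 0.64 without E11.5 A, and with the array letters as a replicate block the adjusted p was 0.00875. The other 6 type II genes, Cdh7, Cdh8, Cdh9, Cdh18, Cdh19 and Cdh20, were not above the median on any array.

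**Figure D2:**
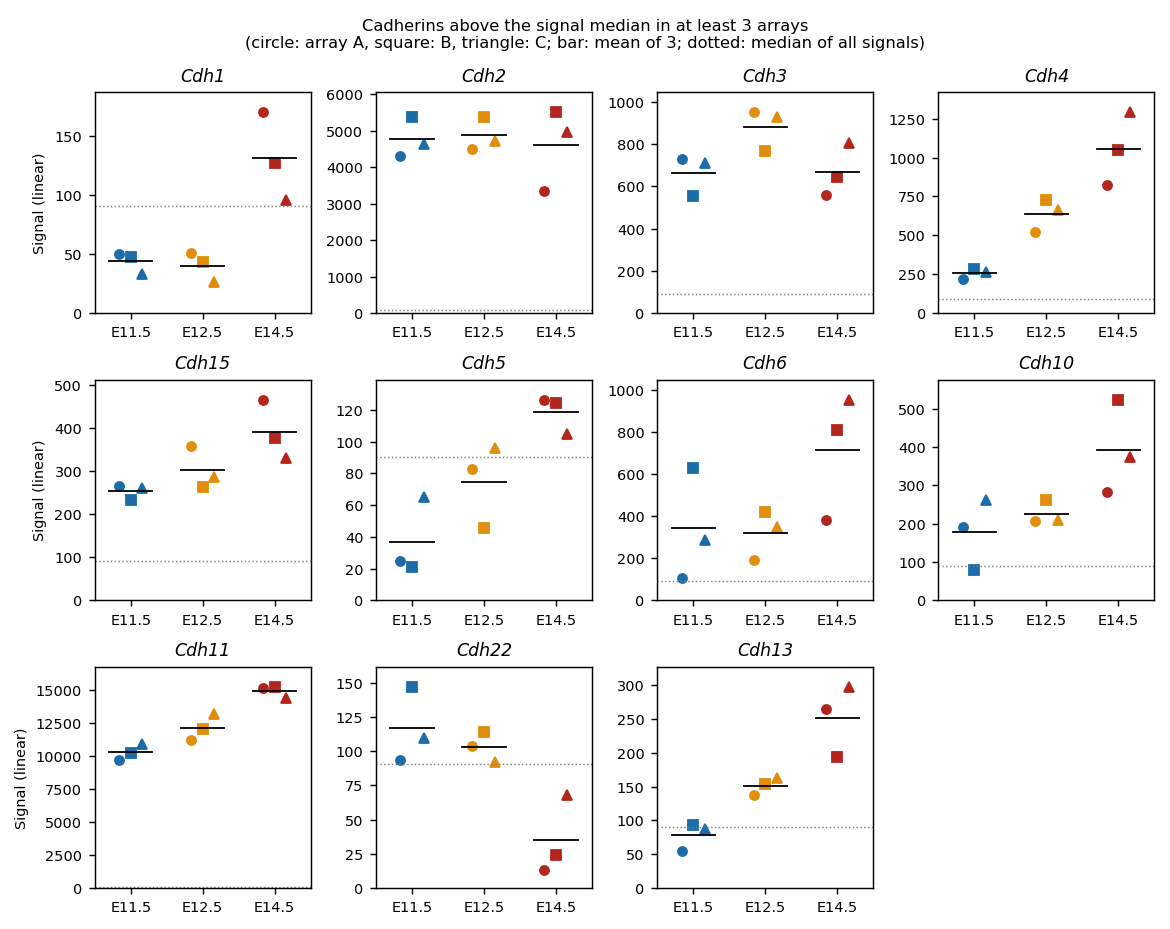
Linear signal, by stage, of the 11 Cdh genes that exceeded 90.6 (dotted line, median of all signals) on 3 or more arrays, one point per array and a bar at the mean of 3. Cdh4 and Cdh11 separated the 3 stages, Cdh1 was high at E14.5 only, Cdh22 was low at E14.5, and Cdh2 and Cdh3 overlapped between E11.5 and E14.5.

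Among the other Cdh genes, Cdh13 alone of 5 was above the median in at least 3 arrays. Cdh13, T-cadherin, is held in the membrane by a lipid anchor, has no cytoplasmic tail and binds adiponectin. Its signals were 54.7, 92.7 and 86.7 at E11.5, 138, 154 and 163 at E12.5, and 265, 194 and 298 at E14.5. No array of a later stage overlapped with an earlier stage. The rise from E11.5 to E14.5 was 1.71 ± 0.23, or 3.26-fold (limma adjusted p = 0.000411), and another Cdh13 probe set rose by 2.36 ± 0.27 (adjusted p = 0.000598). Cdh16 and Cdh17, of kidney and intestinal epithelium, Cdh23, of hair-cell tip links, and Cdh26 were between 0.704 and 90.3, below the median on every array.

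The delta-1 protocadherins carry a tail motif that binds protein phosphatase 1. Of 3 members, Pcdh7 and Pcdh9 were tested and both rose from E11.5 to E14.5, where 22.9% of all tested genes did. Pcdh9 had signals of 136, 177 and 232 at E11.5, 277, 455 and 326 at E12.5, and 742, 1057 and 1153 at E14.5. Each stage was above the one before it on all arrays. The rise from E11.5 to E14.5 was 2.45 ± 0.26, or 5.45-fold (limma adjusted p = 9.89e-05), and it was 1.5 when probe sets of the gene were averaged. Its other tested probe set rose by 1.41 ± 0.45 (adjusted p = 0.0479). Pcdh7 rose by 0.54 ± 0.17 (limma adjusted p = 0.0281), from a mean of 296 ± 47.2 (SD, n = 3) to 429.5 ± 52.6. The Pcdh7 call ended without E11.5 B (adjusted p = 0.0594), E11.5 C (0.0928), E14.5 B (0.0616) or E14.5 C (0.0923), and the rise was 0.33 under quantile normalization (0.145), 0.19 with arrays centred on their medians (0.386) and 0.89 with the most variable probe set (0.0934). With probe sets averaged the adjusted p was 0.107. Pcdh1 was below the median on every array, at 0.628 to 70.1.

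Several delta-2 protocadherins bind the WAVE complex, which drives branched actin. All 5 were above the median on all 9 arrays, and 2 rose from E11.5 to E14.5 (40%), where 22.9% of all tested genes rose. Pcdh19, an X-linked gene best known for epilepsy when mutated, had signals of 421, 1046 and 592 at E11.5, 752, 744 and 760 at E12.5, and 1318, 1442 and 2260 at E14.5. Every E14.5 array was above every earlier array. The rise was 1.35 ± 0.31 from E11.5 (limma adjusted p = 0.00758). In the fit of all probe sets its other tested sets changed by 1.03 ± 0.34 (adjusted p = 0.0556) and 0.97 ± 0.35 (0.0774). Pcdh17 had signals of 301, 475 and 422 at E11.5 and 455, 787 and 904 at E14.5, with one overlapping array, E14.5 A, and rose by 0.81 ± 0.27 (limma adjusted p = 0.0356). That call ended when E11.5 A (adjusted p = 0.119), E11.5 C (0.0578), E14.5 B (0.104) or E14.5 C (0.116) was left out. It also ended without any filter (0.0916), under quantile normalization (0.0829), with median centring (0.46, adjusted p = 0.172) and from the 6 arrays compared (0.0603). Its other probe set rose by 1.01 ± 0.29 (adjusted p = 0.035).

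The other delta-2 genes did not pass the test. Pcdh18 had signals of 4739 to 5645 at E11.5, 5488 to 8085 at E12.5 and 4444 to 6830 at E14.5, and its difference from E11.5 to E14.5 was 0.20 ± 0.20 (limma adjusted p = 0.467), or 0.40 without E14.5 A and 0.09 without E14.5 C. In the fit of all probe sets its other sets changed by 0.41 ± 0.19 (limma adjusted p = 0.154) and 0.49 ± 0.16 (0.0535). Pcdh10 differed by 0.21 ± 0.21 (limma adjusted p = 0.462), by 0.47 without E14.5 A (adjusted p = 0.0308) and by 0.04 without E14.5 C. Pcdh8, the paraxial protocadherin of somite formation, differed by -0.25 ± 0.19 (limma adjusted p = 0.318), by -0.42 when E11.5 B and by -0.13 when E11.5 A was left out, and by -0.60 with arrays centred on their medians (adjusted p = 0.0236). Pcdh18 and Pcdh10 were below 0 under that centring, at -0.15 and -0.14. Among the remaining single protocadherins, Pcdh20 had signals of 36.7, 69.5 and 85.4 at E11.5, 67.0, 112 and 94.3 at E12.5, and 120, 195 and 189 at E14.5. It rose by 1.45 ± 0.33 (limma adjusted p = 0.00705), and the E14.5 arrays were above all earlier ones. With the floor at the median of all signals the rise was 0.86. No E11.5 array of Pcdh20 was above that median. Pcdh12, of endothelium, and Pcdh15, of hair cells, did not reach the filter.

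The Fat and Dchs genes encode the largest cadherins. Fat1, Fat3, Fat4 and Dchs1 were above the median on all 9 arrays, and Fat2 was at 2.75 to 10.9, below the floor of 22.7 on every array. Fat4 and Dchs1 form a receptor and ligand pair. Fat4 had signals of 1583, 3032 and 2766 at E11.5, 1932, 3599 and 3753 at E12.5, and 3274, 3860 and 4790 at E14.5. The E14.5 arrays were above the E11.5 arrays, but the difference of 0.73 ± 0.31 did not pass the test (limma adjusted p = 0.0924). Each letter rose at each step, and with the letters as a replicate block the difference was called (adjusted p = 0.00816). The adjusted p was 0.0497 without E12.5 A and 0.0467 without the 3 letter A arrays. The difference was 0.44 without E11.5 A and 0.38 with arrays centred on their medians. Dchs1 had signals of 470 to 1082, 556 to 806 and 732 to 991 at the 3 stages and differed by 0.29 ± 0.28 from E11.5 to E14.5 (limma adjusted p = 0.448), or by 0.02 without E11.5 A, 0.62 without E11.5 B and 0.17 without E14.5 C.

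Fat3 had signals of 256, 460 and 525 at E11.5, 490, 1067 and 968 at E12.5, and 493, 1147 and 1728 at E14.5. Array E14.5 A lay within the E11.5 range. The rise of 1.33 ± 0.48 was called at the edge of the threshold (limma adjusted p = 0.0496), and leaving out any of 7 single arrays ended the call. The adjusted p was 0.156, 0.0799 and 0.0528 without E11.5 A, B and C, 0.0593 and 0.0605 without E12.5 B and C, and 0.123 and 0.158 without E14.5 B and C. The call was also lost without a floor (0.053), without any filter (0.138), under quantile normalization (0.077), with median centring (0.0953), with probe sets averaged (0.056) or the most variable one (0.0721), with a trended and robust prior (0.0682) and from the 6 arrays compared (0.055). Fat1 had signals of 5182 to 10240 at E11.5, 5537 to 9978 at E12.5 and 8585 to 12138 at E14.5, with a difference of 0.37 ± 0.29 (limma adjusted p = 0.341). It was 0.10 without E11.5 A, 0.59 without E11.5 B, 0.21 without E14.5 C and 0.02 with arrays centred on their medians. In Fat1, Fat3 and Fat4 array A was the lowest of its stage, as it was for 12 of the 34 tested members at every stage (35.3%), against 10.2% of all tested genes. What the letters stand for is not given. As a replicate block they brought Fat4 from E11.5 to E14.5 and Fat3 from E11.5 to E12.5 (adjusted p = 0.0266) past the threshold.

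**Figure D3:**
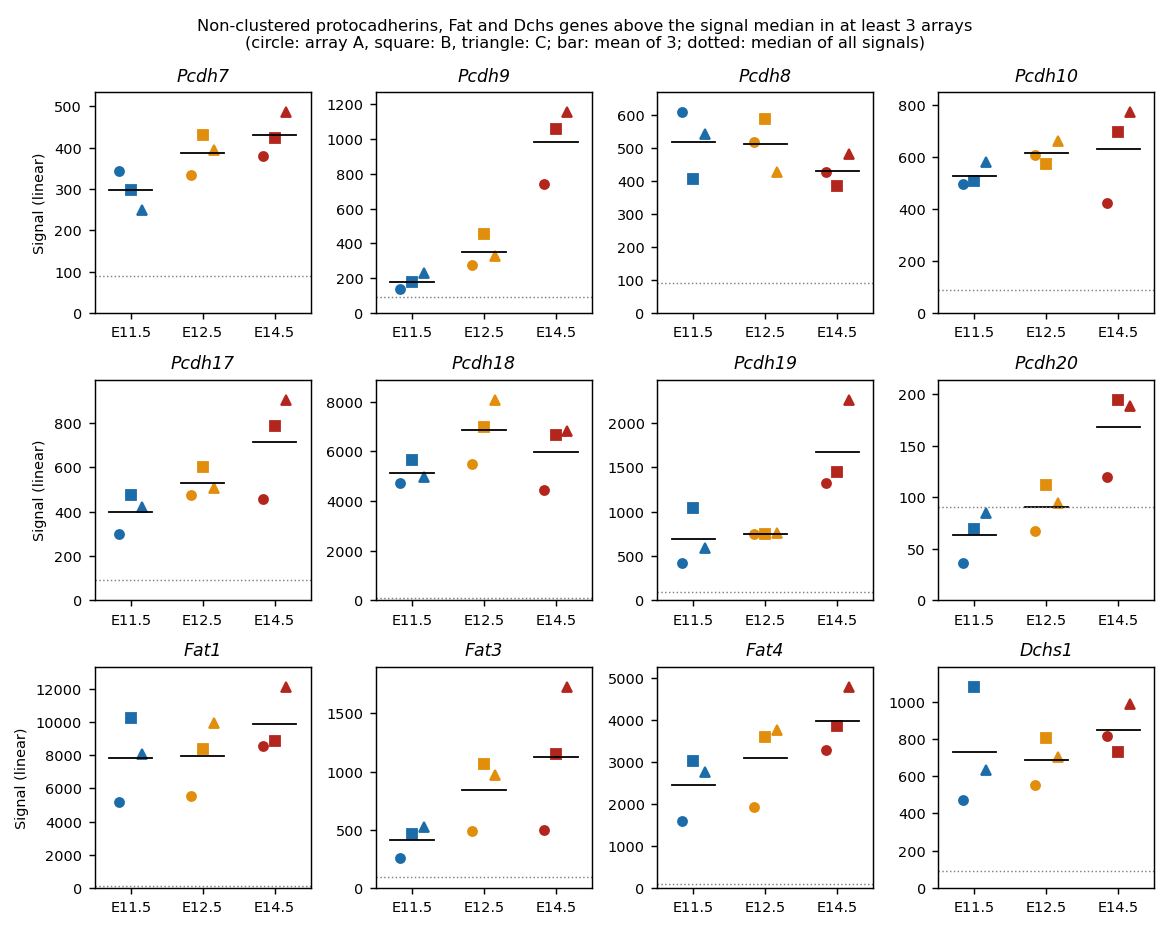
Linear signal of the 8 single protocadherins and the 4 Fat and Dchs genes that exceeded the median of all signals (dotted line) on 3 or more arrays, one point per array and a bar at the mean of 3. Pcdh9, Pcdh19 and Pcdh20 had every E14.5 array above every earlier array, while array A (circle) was low in Pcdh17, Fat1, Fat3 and Fat4.

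The clustered protocadherins lie in tandem on chromosome 18 and give each neuron a mixed surface code, and they have been studied far less outside the nervous system. The table held 22 Pcdhb genes with a symbol of their own, Pcdhgc4, and no Pcdha gene listed alone. Of the 22 Pcdhb genes, 10 were above the median in at least 3 arrays. From E11.5 to E14.5, 9 of these rose and none fell, where 22.9% of all tested genes rose and 17.7% fell. The median change of the 10 was 1.36 on the log2 scale. In 9 of the 10 tested genes every E14.5 array was above every E11.5 array, where 27.3% of all tested genes had this. These are the same 9 that were called, so the 2 counts are not separate results. Pcdhb9 and Pcdhb15 among them passed the filter only through later arrays. The 10 were Pcdhb3, Pcdhb7, Pcdhb9, Pcdhb15, Pcdhb16, Pcdhb17, Pcdhb19, Pcdhb20, Pcdhb21 and Pcdhb22. These genes are close in sequence, so probes for one may bind transcripts of another, and the probe set used for Pcdhb15 is of the kind that matches several transcripts.

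Pcdhb9 rose most, by 2.71 ± 0.34, or 6.53-fold (limma adjusted p = 0.000266). Its signals were 33.0, 40.3 and 70.2 at E11.5, 137, 108 and 138 at E12.5, and 481, 225 and 240 at E14.5. The stages did not overlap, and with the floor at the median of all signals the rise was 1.71. None of its E11.5 arrays was above that median, so Pcdhb9 passed the filter only through its later stages. Pcdhb17 had signals of 205, 157 and 213 at E11.5, 304, 278 and 282 at E12.5, and 593, 530 and 526 at E14.5, a rise of 1.53 ± 0.15 (limma adjusted p = 5.32e-05). The arrays of a stage stayed close together and the stages did not overlap. Pcdhb20 rose by 1.74 ± 0.27 (limma adjusted p = 0.000929), from 107, 101 and 199 to 344, 486 and 472.

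Pcdhb19 rose by 1.45 ± 0.20 (limma adjusted p = 0.000433), Pcdhb22 by 1.37 ± 0.19 (0.000572), Pcdhb16 by 1.34 ± 0.35 (0.0127), Pcdhb7 by 1.26 ± 0.23 (0.00208) and Pcdhb3 by 1.08 ± 0.14 (0.000404). Pcdhb15 rose by 0.97 ± 0.15 (limma adjusted p = 0.000924), passed the filter only through its E14.5 arrays and was not tested without any one of them or without the 3 letter A arrays. It rose by 0.41 with the floor at the median, by 0.61 with median centring and by 0.56 under quantile normalization (0.0753). That normalization gave 0.89 for Pcdhb16 and 0.71 for Pcdhb3. Pcdhb21 did not pass the test, with a difference of 0.30 ± 0.29 (limma adjusted p = 0.434), or 0.65 without E11.5 C (adjusted p = 0.0389) and 0.03 without E11.5 A, and below 0 under quantile normalization (-0.18) and median centring (-0.05). Pcdhgc4, a gamma-cluster gene of the C type, had signals of 176 to 504 at E11.5 and 169 to 407 at E14.5, which overlapped, and differed by -0.43 ± 0.48 (limma adjusted p = 0.513), or by -0.10 when E11.5 B and by -0.86 when E11.5 A was left out. The 12 other Pcdhb genes had signals of 0.502 to 113 and did not reach the filter.

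The Pcdha genes share their last exons, and the 6 probe sets for them are each annotated with 9 or 14 genes, which keeps them outside the 60 members. In the fit of all probe sets, 2 of the 6 were above the median in at least 3 arrays. One had signals of 153, 121 and 124 at E11.5, 287, 235 and 350 at E12.5, and 436, 501 and 487 at E14.5, and rose by 1.84 ± 0.18 (adjusted p = 0.000266) with no overlap between stages. The other rose by 1.18 ± 0.25 from E11.5 to E14.5 (adjusted p = 0.011). These are values for a shared part of the Pcdha transcripts, not for one gene.

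**Figure D4:**
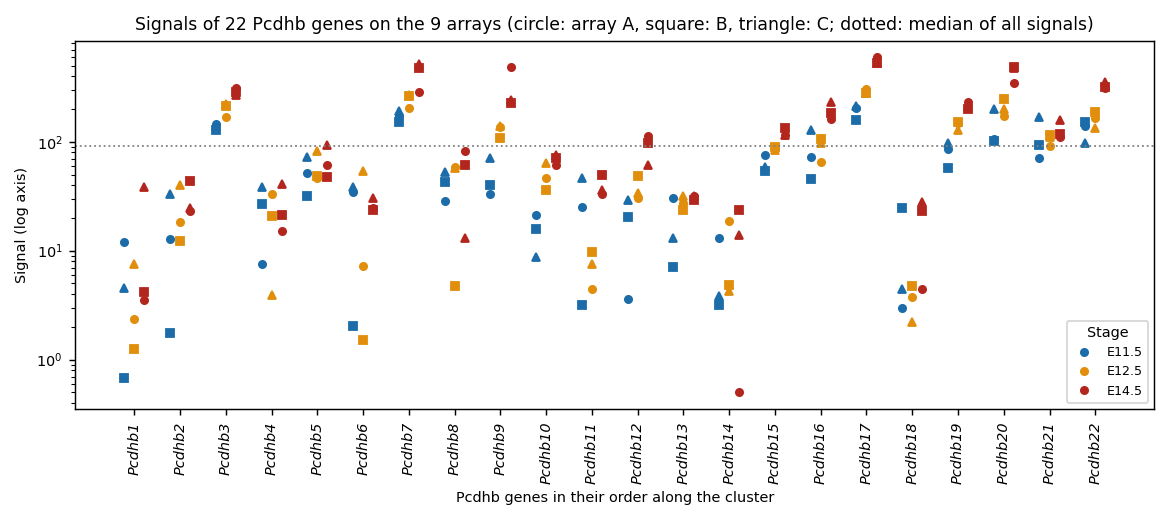
Signal on a log axis of the 22 Pcdhb genes in the order of their positions along the cluster, one point per array, coloured by stage. 10 genes had at least 3 arrays above the median of all signals (dotted line, 90.6). In 9 of the 10 every E14.5 array was above every E11.5 array, as in 27.3% of all tested genes.

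The earlier and the later interval share the E12.5 arrays, so each is given on its own. From E11.5 to E12.5 the 4 called members were Pcdhb9 (1.48 ± 0.34, limma adjusted p = 0.0457), Cdh4 (1.31 ± 0.20, 0.00846), Cdh13 (0.99 ± 0.23, 0.0477) and Pcdhb19 (0.87 ± 0.20, 0.045). Cdh4 kept this call under all alternatives tried. With the floor at the median of all signals the Pcdhb9 rise was 0.49 (adjusted p = 0.41), and the Pcdhb9, Cdh13 and Pcdhb19 calls were also lost without any filter (0.156, 0.139 and 0.119), under quantile normalization (0.0712, 0.129 and 0.143), without the 3 letter A arrays (0.0891, 0.13 and 0.15) and with median centring (0.0744, 0.107 and 0.107). Leaving out single arrays ended these calls: the adjusted p rose to between 0.0571 and 0.162 for Pcdhb9 (without E11.5 A or B, any E12.5 array, E14.5 B or C), to between 0.0535 and 0.17 for Cdh13 (without any array but E14.5 B) and to between 0.0633 and 0.164 for Pcdhb19 (without E11.5 A or B, any E12.5 array, E14.5 B or C). The count of 4 was 1 without E11.5 A, E11.5 B, any E12.5 array or E14.5 C, 2 without E14.5 B, and 5 without E11.5 C, where Cdh5 (0.0279) and Pcdhb20 (0.0484) were called. With the array letters as a replicate block, Pcdhb9 was not called (adjusted p = 0.0514), while Fat3 (1.01, 0.0266), Pcdh9 (0.96, 0.0242) and Pcdhb17 (0.60, 0.047) were.

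From E12.5 to E14.5, Cdh1 rose most (1.72 ± 0.29, limma adjusted p = 0.00343), followed by Pcdh9 (1.49 ± 0.26, 0.00394) and Pcdhb9 (1.22 ± 0.34, 0.0297). Cdh1 passed the filter only through its E14.5 arrays, and its rise was 0.49 with the floor at the median of all signals (adjusted p = 0.0757). That of Pcdh9 was 0.86 with probe sets averaged (0.051). Pcdhb17 (0.93 ± 0.15, 0.0023) kept this call under all alternatives, and Pcdhb22 (1.03 ± 0.19, 0.00586) lost it only without the 3 letter A arrays (0.053). Pcdh19 (1.11 ± 0.31, 0.0318), Pcdhb16 (1.11 ± 0.35, 0.0468), Pcdhb20 (1.07 ± 0.27, 0.0201), Pcdhb7 (0.76 ± 0.23, 0.0391), Cdh4 (0.72 ± 0.20, 0.0297) and Pcdhb3 (0.53 ± 0.14, 0.0277) were the others. The Cdh4 rise was 0.39 with probe sets averaged (0.126) and 0.45 with the most variable probe set (0.237). Without any filter Pcdhb9 (0.0876), Pcdhb16 (0.123), Pcdh19 (0.0904), Pcdhb20 (0.0618), Pcdhb7 (0.0881) and Cdh4 (0.0639) were not called, and Pcdhb7, Cdh4 and Pcdhb3 were not with median centring (0.066, 0.063 and 0.0758). Each of the 6 others, and Pcdhb9, lost the call without some single arrays. The highest adjusted p was 0.101 for Pcdh19 (lost without any E12.5 array, E14.5 B or C), 0.147 for Pcdhb16 (without E11.5 A or any E12.5 or E14.5 array) and 0.0718 for Pcdhb20 (without E12.5 A or C, E14.5 B or C). It was 0.128 for Pcdhb7 (without E11.5 A, any E12.5 array, E14.5 B or C), 0.103 for Cdh4 (without E12.5 A or C, E14.5 B or C), 0.0972 for Pcdhb3 (without E12.5 A or B, E14.5 A or B) and 0.0929 for Pcdhb9 (without any E12.5 array or E14.5 A). Other members were called without some arrays: Cdh13 when E14.5 B (0.033), E11.5 A (0.0239) or E11.5 B (0.0487) was left out, Pcdh20 without E11.5 A (0.0375), Pcdhb15 without E11.5 A or B (0.0331 and 0.041) and Pcdhb19 without E11.5 B (0.017). The count of 11 was 4, 6 and 5 without E12.5 A, B and C, and 7, 5 and 5 without E14.5 A, B and C. With the letters as a replicate block 14 members rose, the added ones being Cdh13 (0.71, adjusted p = 0.0434), Cdh6 (1.12, 0.0272) and Pcdh20 (0.88, 0.00717).

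No member was called for a level at E12.5 that differed from the mean of the other stages (0 of 34, limma), where 0.769% of all tested genes were, and 2 members had an unadjusted p under 0.05, where 11.4% of all genes did. Those 2 were Cdh1, at -0.94 ± 0.25 (limma adjusted p = 0.161), and Cdh3, at 0.41 ± 0.15 (0.332), named here after their values were seen. With the letters as a replicate block Cdh1 was called (adjusted p = 0.0148).

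Promoter windows from RefSeq (build GRCm38.p6, 250 bases before to 50 after the start) matched 24 members, with 27 windows. The E-box CANNTG is the motif bound by basic helix-loop-helix factors such as Scx, Twist1 and the myogenic factors, and Zeb and Snail proteins bind its form CAGGTG. As its reverse complement is again CANNTG, each match counts for both strands. An E-box was found in 15 of the 27 members' windows (55.6%), against 72.3% of all 32851 windows of this length. Among the 8 genes that rose from E11.5 to E14.5 and had a window, 4 of 9 windows held one (44.4%), and among the 6 tested genes that were not called 2 of 6 did (33.3%). CAGGTG or its reverse complement CACCTG, which are among the E-boxes, was found in 22.2% of the members' windows and 20.2% of all windows. The median number of CpG dinucleotides was 18 in the windows of the genes that rose, 13.5 in those of the tested genes not called, 13 in those of all 24 members and 7 in all windows. 4 windows are shown, picked after their sequences were seen to run from no E-box to 4, with E-boxes in capitals. They are Pcdh9 (chr14:93890620-93890919, minus strand), Pcdh19 (chrX:133688944-133689243, minus strand), Cdh15 (chr8:122848124-122848423, plus strand) and Cdh22 (chr2:165234688-165234987, minus strand), printed 5′ to 3′ along each gene's strand.
Pcdh9: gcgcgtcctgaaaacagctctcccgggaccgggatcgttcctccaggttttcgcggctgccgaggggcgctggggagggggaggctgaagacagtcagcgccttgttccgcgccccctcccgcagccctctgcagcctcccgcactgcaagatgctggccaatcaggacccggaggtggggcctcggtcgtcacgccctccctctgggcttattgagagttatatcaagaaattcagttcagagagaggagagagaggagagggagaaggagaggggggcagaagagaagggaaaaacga
Pcdh19: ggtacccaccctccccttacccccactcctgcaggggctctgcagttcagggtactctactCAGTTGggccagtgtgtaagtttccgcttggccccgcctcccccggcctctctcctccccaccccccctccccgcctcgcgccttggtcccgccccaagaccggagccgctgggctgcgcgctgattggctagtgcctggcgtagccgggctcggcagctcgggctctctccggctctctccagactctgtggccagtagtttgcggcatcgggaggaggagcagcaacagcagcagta
Cdh15: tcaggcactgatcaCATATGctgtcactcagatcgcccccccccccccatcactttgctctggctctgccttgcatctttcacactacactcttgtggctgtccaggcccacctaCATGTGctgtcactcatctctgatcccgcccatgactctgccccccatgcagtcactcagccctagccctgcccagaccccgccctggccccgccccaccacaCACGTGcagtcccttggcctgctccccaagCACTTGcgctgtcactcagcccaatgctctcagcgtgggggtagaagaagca
Cdh22: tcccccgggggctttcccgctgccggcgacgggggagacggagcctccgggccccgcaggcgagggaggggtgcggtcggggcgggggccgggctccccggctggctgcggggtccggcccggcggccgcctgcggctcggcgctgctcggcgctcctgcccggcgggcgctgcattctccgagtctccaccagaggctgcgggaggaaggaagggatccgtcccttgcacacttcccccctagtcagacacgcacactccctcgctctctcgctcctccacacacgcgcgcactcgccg
The Cdh15 window held 4 E-boxes, which begin at positions -236, -135, -32 and -2 from the start site. The Pcdh19 window held 1, at -189, and those of Pcdh9 and Cdh22 held none. The Cdh22 window, of the only gene that fell, had 38 CpG and 76.3% G or C, and that of Pcdh9, with the largest rise among the genes with a window, had 19 CpG and 62.3% G or C.

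Catenins and other junction proteins hold classical cadherins to actin. Of 19 such genes, 15 were tested from E11.5 to E14.5, 3 rose (20%) and 3 fell (20%), shares near the 22.9% and 17.7% of all genes, and the median change was -0.09. Beta-catenin (Ctnnb1), which links cadherin tails to alpha-catenin, differed by -0.15 ± 0.15 (limma adjusted p = 0.476), by -0.03 without E11.5 B, and by -0.50 with arrays centred on their medians (adjusted p = 0.0222). p120-catenin (Ctnnd1), which keeps cadherins at the membrane, differed by -0.09 ± 0.19 (limma adjusted p = 0.749), or by 0.07 without E11.5 B. Alpha-catenin (Ctnna1) fell by 0.57 ± 0.15 on the log2 scale (limma adjusted p = 0.0137), a call lost with probe sets averaged (adjusted p = 0.278), with the most variable one (0.655), without E11.5 A (0.0502) and without E14.5 C (0.05). Arvcf, a relative of p120-catenin, fell from a mean signal of 435 ± 53.0 (SD, n = 3) to 168 ± 29.3 (-1.38 ± 0.17 on the log2 scale, limma adjusted p = 0.000296). Iqgap1, a scaffold that binds beta-catenin and actin, rose from 936 ± 52.3 to 2616 ± 601 (1.46 ± 0.18, limma adjusted p = 0.000252). Ctnnal1 fell by 0.70 ± 0.14 (0.00417) and the nectin Nectin2 rose by 0.61 ± 0.13 (0.00557), the latter lost with probe sets averaged (0.28, adjusted p = 0.181), without the letter A arrays (0.0636) and with median centring (0.26, 0.157). With probe sets averaged Arvcf was at -0.88 and Iqgap1 at 0.86.

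Of the cadherin relatives that the naming rule left out, 10 of 21 were tested. From E11.5 to E14.5, 4 rose (40%), where 22.9% of all tested genes rose. Pcdh11x, an X-linked delta-1 protocadherin, rose from a mean of 23.9 ± 11.1 (SD, n = 3) at E11.5, with 2 arrays at the floor, over 56.3 ± 19.6 at E12.5 to 243 ± 43.7 at E14.5. That is a change of 3.18 ± 0.27 (limma adjusted p = 2.77e-05), or 1.41 with the floor at the median of all signals. Pcdh11x passed the filter only through its 3 E14.5 arrays, so it had to differ. Dsc3, a desmosomal cadherin, rose by 1.48 ± 0.20 (limma adjusted p = 0.000411), or 0.81 with that floor. Dsc3 passed the filter only through its E12.5 and E14.5 arrays. The calsyntenins, cadherin-repeat proteins that bind kinesin, also rose: Clstn2 by 1.0 ± 0.26 (0.013) and Clstn1 by 0.55 ± 0.15 (0.0179). With median centring Clstn2 rose by 0.65, and Clstn1 was at 0.20 (adjusted p = 0.291). The Clstn1 call also ended without the letter A arrays (0.36, 0.147), with the most variable probe set (0.101), without E11.5 A (0.0613) and without E14.5 A (0.0509).

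Partners of Fat and Dchs moved in both directions. Of 14 tested, 6 rose (42.9%) and 3 fell (21.4%), where 22.9% of all tested genes rose and 17.7% fell. Fjx1, the counterpart of the fly Golgi kinase Four-jointed, which phosphorylates Fat and Dachsous cadherin repeats, rose from 265 ± 56.6 (SD, n = 3) at E11.5 over 415 ± 40.8 to 876 ± 125 at E14.5 (1.74 ± 0.19, limma adjusted p = 0.000119), or by 1.1 with probe sets averaged. Lix1, whose fly counterpart acts in Fat signalling, fell from 750 ± 103 to 132 ± 59.8 (-2.59 ± 0.35, limma adjusted p = 0.000403). Wwtr1, the transcriptional co-activator TAZ, rose by 1.24 ± 0.15 (limma adjusted p = 0.000228). Prickle1, a planar polarity gene, rose by 1.05 ± 0.20 (limma adjusted p = 0.0032), by 0.70 with median centring and by 0.32 with probe sets averaged (adjusted p = 0.492).

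Among 6 tested transcription factors known to act on cadherin genes, 3 rose (50%), where 22.9% of all tested genes rose. Zeb2, a zinc-finger repressor of Cdh1 in epithelial cells, rose from 105 ± 31.8 (SD, n = 3) at E11.5 to 639 ± 154 at E14.5 (2.62 ± 0.26, limma adjusted p = 6.31e-05). Twist2 rose by 0.74 ± 0.18 (limma adjusted p = 0.00879), and Zeb1 rose by 0.64 ± 0.14 (0.00652), a call lost when probe sets were averaged (0.258), when the most variable one was used (0.586) and with median centring (0.29, 0.146). The Twist2 call ended with arrays centred on their medians (0.39, adjusted p = 0.106) and without the letter A arrays (0.0541). Of 9 tested proteases that cut or mature cadherins, 6 rose (66.7%) and none fell, where 22.9% of all tested genes rose and 17.7% fell. Pcsk5, a proprotein convertase, rose by 1.66 ± 0.18 (limma adjusted p = 0.0001), and Mmp14, a membrane metalloprotease, rose from 3032 ± 811 to 8056 ± 705 (1.44 ± 0.20, 0.000507). Pcsk6 (1.01 ± 0.28, 0.016) and Adam9 (0.72 ± 0.14, 0.00299), a sheddase, rose as well. The Adam9 call ended with median centring (0.37, adjusted p = 0.0621), and the Pcsk6 call with median centring (0.66, 0.0531), without any filter (0.0513) and without E11.5 B (0.0581).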

How the data were processed

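RNA of GFP-positive forelimb cells (100 ng, amplified, Affymetrix Mouse Genome 430 2.0) was measured on 9 arrays. The deposited intensity values are linear MAS5 signals made by the authors, per the submitters' processing notes, in Affymetrix Expression Console 1.1. In the table the mean of each array without its top and bottom 2% is 500, and array medians run from 68.7 to 118. Probe sets were named from GEO's platform annotation: of 45101, 34945 had 1 symbol, 932 several, 9160 none listed and 64 were controls, and 18032 of 18193 genes matched RefSeq by gene ID. Where a gene had several probe sets, the one with the highest mean over the arrays was used (_x_at sets only where no other existed), signals were floored at 22.7, their 25th percentile, and log2 values were fitted with limma 3.58.1 (R 4.3.3), 1 mean per stage over 9 arrays and 6 residual degrees of freedom, two-sided, with Benjamini-Hochberg adjustment over 11575 genes. The code was tested on simulated data.

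The members and lists were chosen with earlier results of these data known. The text names, per comparison, up to 10 called members with the largest rise and fall, a fixed list of members, up to 4 called genes per partner list, and, outside that rule, the other tested members. Deviations of arrays with the same letter correlated at 0.133 to 0.52 between E11.5 and E12.5, 0.121 to 0.31 between E12.5 and E14.5, and -0.00516 to 0.313 between E11.5 and E14.5. Between different letters they ran from -0.386 to 0.122, -0.389 to 0.175 and -0.404 to 0.175, in the same order of comparisons. The letters were taken to pair the arrays in the first 2 of these, from the data alone. In the second, E12.5 B with E14.5 C (0.175) was above the lowest same-letter value, so that pairing is not clear. The main fit left the letters out. Block results from E11.5 to E14.5 are given although that comparison was not taken as paired. Alternatives were other floors, filters, scalings, probe-set choices, the letters as a block, and leaving out arrays. Marker lists for bone, Schwann cells, neurons, blood and mural cells are given among the closing observations. Promoter sequences were not at hand for every member, and those on chromosome 18 are not reported here.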

Additional observations from a re-analysis of the deposited data

How the results depend on the processing

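Of the 23 members called between E11.5 and E14.5, all 23 kept their direction under the up to 21 alternatives in which they were tested. 13 lost the call in none of them, 6 lost it in 1 to 5, and 4 (Fat3, Cdh10, Pcdh7 and Pcdh17) in more. The 22 rises were 14 with the mean of a gene's probe sets, where Cdh5, Cdh10, Cdh13, Pcdh20, Pcdhb15 and Pcdhb16 did not meet the filter, and the 1 fall was 0 with the floor at the median of all signals and 2 with median centring (Pcdh8 added). With each probe set as a row, the sets used for Cdh10, Fat3, Pcdh7 and Pcdh17 lost the call. The 4 rises from E11.5 to E12.5 were 2 without a floor, 1 without a filter, 1 with quantile normalization, 1 with median centring, 1 with the mean of probe sets, 2 with the most variable probe set, 2 from the 6 arrays compared, 1 without the letter A arrays and 1 with each probe set as a row (2 sets, both of Cdh4), and 1 to 5 leaving out single arrays. The 11 rises from E12.5 to E14.5 were 7 without a filter, 7 with the most variable probe set, 5 without the letter A arrays, 5 with each probe set as a row over the sets used in the report (6 over all sets, with another set of Cdh13), and 4 to 14 leaving out single arrays. The 1 fall there was 0 with the floor at the median, 0 without a filter, 0 without the letter A arrays and 2 with median centring (Cdh3 added). As a replicate block, the letters gave 6, 14 and 24 rises in the 3 comparisons in order of time, 1 fall in each comparison with E14.5, and 1 member at E12.5 against the other stages, in place of 0. In the comparison of E11.5 with E14.5 the block added Cdh6 (adjusted p = 0.00875) and Fat4 (0.00816), and it changed no call of a member beyond those given here and in the report. Differences near 0 changed sign: Cdh2 to 0.070 without the letter A arrays and -0.22 to 0.14 leaving out single arrays, Cdh3 to -0.089 with quantile normalization, -0.35 with median centring, -0.22 with the mean of probe sets and -0.13 to 0.13 leaving out single arrays. Pcdh18 (-0.15), Dchs1 (-0.059), Pcdh10 (-0.14) and Pcdhb21 (-0.046) turned with median centring, Pcdhb21 (-0.18) with quantile normalization, and Ctnnd1 ranged from -0.21 to 0.068 leaving out single arrays. The cause of these changes was not tested. MAS5 signals near or below the floor of 22.7 have no order, which limits Cdh22, Cdh5 and the 26 members that did not reach the filter.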

Other observations

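Other cell types were looked for with the remaining marker lists. From E11.5 to E14.5 the summed signal of the 5 bone markers with a probe set was 242 to 302 at E11.5, 383 to 496 at E12.5 and 2215 to 3072 at E14.5, and 2 of 3 tested rose. Neuron markers summed to 840 to 979, 1555 to 1587 and 1831 to 3004, with 3 of 5 tested higher and 2 lower. Blood markers summed to 190 to 286, 220 to 409 and 454 to 653, with 1 of 2 tested higher. Mural markers summed to 4471 to 5702, 4859 to 6946 and 5794 to 8840, with 4 of 6 tested higher and 1 lower. Schwann cell markers summed to 572 to 722, 771 to 858 and 722 to 1077, with 1 of 2 tested higher. The cartilage list had 6 of 10 tested genes higher and none lower, with the widest spread between the E14.5 arrays, and the tendon list had 6 of 7 higher and 1, Scx, lower. The part of these cell types in the changes of cadherin genes was not tested.

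Several members had more than 1 probe set: 27 of the 60 genes, with 105 probe sets in all. In the fit of all probe sets, chosen after seeing the data, 51 of the 105 were tested, 22 rose from E11.5 to E14.5 and 1 fell, where 15% of all probe sets rose and 11.9% fell. The 22 sets belong to 19 genes. In that fit the sets used for Cdh10 (adjusted p = 0.0565), Fat3 (0.0899), Pcdh7 (0.0509) and Pcdh17 (0.0664) were not called. Besides the sets used in the report, 17 sets of 13 genes were tested, of which 14 had a positive change, 4 rose (Cdh4, Cdh13, Pcdh9 and Pcdh17) and none fell. Among members below the filter, Pcdh15 had signals of 13.4 to 42.6 at E11.5, 30.5 to 53.4 at E12.5 and 76.1 to 135 at E14.5, and Pcdhb12 had 3.59 to 29.2, 30.2 to 48.3 and 61.3 to 113. Pcdhb10 had 8.84 to 21.2, 35.9 to 63.2 and 61.5 to 75.5. These 3 are named after their values were seen: in the fit without any filter they were called from E11.5 to E14.5, at 1.69 ± 0.35 for Pcdh15 (adjusted p = 0.014), 1.83 ± 0.28 for Pcdhb12 (0.00426) and 1.61 ± 0.19 for Pcdhb10 (0.00188), and Pcdhb12 was also called from E12.5 (1.26 ± 0.28, 0.0305).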
